A study of Mus musculus with 12 samples.

Results

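The 40 genes described here encode proteins of cell division, from the G1 cyclins to the proteins that part the daughter cells. They were matched by symbol, without use of a measured value, from a list chosen with earlier results of these data known. All 40 were found among the 39171 genes of the count table. All 40 also had counts high enough to be tested, as did 15589 genes in all. RNA came from whole kidneys of 12 male mice aged up to 3 months, with 1 library per mouse. Of these, 4 mice were sick knock-in animals, 4 were healthy knock-in animals and 4 were healthy wild-type animals. Both knock-in groups carried GNE M743T on both alleles, so sick and healthy knock-in mice shared a genotype and were set apart by their state of health. *Gne* encodes the enzyme that opens the synthesis of sialic acid, and the labels name no treatment. The sources used here do not say what made some knock-in mice sick or whether mice shared a litter. CPM denotes a count scaled to the library total after correction of that total by the trimmed mean of M-values (TMM).

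Cells that commit to division pass through G1 under the control of D-type cyclins, which with their kinases free E2F transcription factors and so turn on genes of DNA replication. The MCM helicase is loaded onto origins in G1, with the help of CDC6, and opens the DNA in S phase. In G2 and mitosis cyclins A and B drive CDK1, while aurora and polo-like kinases, motor proteins and checkpoint proteins build and survey the spindle. Genes of this late set are held off in resting cells and turned on in G2 through complexes that include FOXM1. At the end of mitosis the central spindle, the RhoA activator ECT2 and the ring protein anillin divide the cell body. Kidney tubules of a young adult mouse divide rarely, and the surviving tubule cells are known to enter the cycle after injury. Dividing cells of a damaged kidney can also be macrophages, fibroblasts or other cells of the tissue between the tubules.

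Promoter windows of 32 of the 40 genes were found in RefSeq (GRCm38.p6), from 250 bases before to 50 bases after the start of the gene. *Ccnd1*, *Ccnd2*, *Foxm1*, *Mcm4*, *Ccna2*, *Aurkb*, *Tpx2* and *Kif20a* were not matched. The 250 bases before the start are shown, 5′ to 3′ on the strand of the gene, for 5 genes that stand for the letters shared within a role and on which results below turn. Capitals mark 4 motifs on either strand: TTTGAA, the core of the cell cycle genes homology region of late genes; CCAAT, the box bound by NF-Y, which reads ATTGG on the other strand; and TTTGGCGC and TTTCCCGC, forms of the E2F site.
Mcm3 (chr1:20820313-20820562, reverse strand): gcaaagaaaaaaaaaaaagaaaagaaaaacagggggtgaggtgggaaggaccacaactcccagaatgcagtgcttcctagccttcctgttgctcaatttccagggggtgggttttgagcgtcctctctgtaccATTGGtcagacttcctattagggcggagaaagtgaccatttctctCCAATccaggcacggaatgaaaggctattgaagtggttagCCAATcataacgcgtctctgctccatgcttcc
Mcm6 (chr1:128359706-128359955, reverse strand): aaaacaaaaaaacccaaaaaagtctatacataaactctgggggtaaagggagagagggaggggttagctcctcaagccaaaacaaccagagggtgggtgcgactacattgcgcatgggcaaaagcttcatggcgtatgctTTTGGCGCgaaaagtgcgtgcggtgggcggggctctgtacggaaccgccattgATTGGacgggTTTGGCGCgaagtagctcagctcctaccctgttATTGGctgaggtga
Cdk1 (chr10:69352913-69353162, reverse strand): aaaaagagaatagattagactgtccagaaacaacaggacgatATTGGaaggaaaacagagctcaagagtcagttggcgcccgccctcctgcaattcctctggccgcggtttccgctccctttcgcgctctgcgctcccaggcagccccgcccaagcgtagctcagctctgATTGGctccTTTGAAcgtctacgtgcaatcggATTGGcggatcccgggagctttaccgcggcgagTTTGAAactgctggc
Mki67 (chr7:135716380-135716629, reverse strand): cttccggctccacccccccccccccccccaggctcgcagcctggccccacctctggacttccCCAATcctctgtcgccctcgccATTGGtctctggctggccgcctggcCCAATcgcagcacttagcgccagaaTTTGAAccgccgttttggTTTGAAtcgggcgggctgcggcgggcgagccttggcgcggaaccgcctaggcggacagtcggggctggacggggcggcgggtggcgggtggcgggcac
Ect2 (chr3:27153879-27154128, reverse strand): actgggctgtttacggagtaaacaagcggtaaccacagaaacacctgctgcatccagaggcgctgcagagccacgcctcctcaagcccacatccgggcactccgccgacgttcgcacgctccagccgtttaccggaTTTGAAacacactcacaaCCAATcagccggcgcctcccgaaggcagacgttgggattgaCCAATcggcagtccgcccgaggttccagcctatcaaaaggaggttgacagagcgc

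TTTGAA was present in 16 of the 32 windows (50%), against 17.9% of all 32851 windows of the same length. CCAAT was present in 25 (78.1%), against 37.4% of all windows, and both together in 15 (46.9%), against 6.95%. An E2F form was present in 5 windows (15.6%), against 1.56% of all windows. The motifs differed by role: the 5 windows with an E2F form were all among the 7 of replication licensing, *Mcm3*, *Mcm5*, *Mcm6*, *Mcm7* and *Cdc6*. TTTGAA was in all 6 windows of anaphase and cytokinesis genes, in 5 of 8 of the mitotic cyclins and kinases and in 4 of 6 of the chromosome and spindle genes. It was in 1 of 7 of the replication windows, that of *Mcm2*, and in 0 of 3 of the deoxynucleotide synthesis windows. In *Mki67*, which encodes the proliferation antigen Ki-67, TTTGAA began at -116 and -98, counted from the start of the gene, and in *Cdk1* at -71 and -15. In *Ect2* it began at -114, close to CCAAT at -96 and -55, and in *Mcm6* TTTGGCGC began at -110 and -47. *Mcm3* had no E2F form among the letters shown, and both of its forms lay downstream of the start, at 20 and 39. A pair of matches overlapped in 1 window, that of *Ube2c*, where both were CCAAT. These matches describe letters and not bound sites.

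The libraries held 10605546 to 22633684 counts in sick, 18191087 to 21925419 in healthy knock-in and 13189478 to 19493856 in wild-type mice. The TMM factors were 1.23 to 1.388 in sick libraries, 0.8036 to 0.9333 in healthy knock-in libraries and 0.8387 to 0.9006 in wild-type libraries, so each CPM comparison with sick mice rests on this scaling. A kidney marker, *Umod*, the uromodulin gene of the thick ascending limb, was present in all 12 libraries, at 265 to 2639 CPM in sick mice, 1115 to 3861 CPM in healthy knock-in mice and 2562 to 3657 CPM in wild-type mice. Wild-type mouse 2 lay at -84.73 on the second principal component, against 1.336 to 18.29 for the other wild-type mice, and its 13 proximal tubule markers summed to 15481 CPM, against 44765 to 50243 CPM in the others. In this mouse 1 of the 13 markers had 0 counts, and in the other wild-type mice 0 of them did. The sum does not show whether all 13 were lower. Without wild-type mouse 2 the count of members called between sick and wild-type mice was 10 in place of 11, and that of all genes 8376 in place of 7933.

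Sick knock-in kidneys were compared with wild-type kidneys to find what differs in carriers of the substitution that fell ill. Most cell division genes were not called: 9 of 40 rose (22.5%), 2 fell (5%) and 29 did not pass an edgeR adjusted p of 0.05. Of all genes tested, 25.9% rose and 25% fell in this comparison (50.9% in either direction). In this fit the members were thus called no more often than genes in general. Those that rose were *Foxm1*, *Mcm2*, *Mcm3*, *Mcm4*, *Cdc6*, *Rrm1*, *Ccnb1*, *Kif23* and *Anln*, and those that fell were *Ccnd1* and *Ect2*. In whole kidney more cells of a type and more RNA per cell cannot be told apart. The fold changes were positive in 36 members and negative in 4, at a median log2 fold change of 0.61 over the 40, against 0.02 over all genes tested. With libraries scaled by totals alone, 28 members rose and 1 fell, while of all genes 8420 rose and 1605 fell (against 4032 and 3901 with TMM), and the medians were 1.202 over the members and 0.61 over all genes. Fitted to the 8 sick and wild-type libraries alone, 12 members rose and 2 fell (3625 and 3319 of all genes). Upper-quartile factors gave 13 and 2 (4746 and 3168 of all genes). The 4 sick mice lay above all 4 wild-type mice in 8 members (20%, against 22.7% of all genes) and below them in 2 (20.6% of all genes), and 43.2% of all genes did not overlap in either direction. Summed over all 40 members, the level was 581, 333, 397 and 471 CPM in sick mice, 467, 711, 544 and 367 CPM in healthy knock-in mice and 665, 597, 631 and 448 CPM in wild-type mice. That sum averaged 445 ± 106 CPM in sick mice, below the 585 ± 95.8 CPM in wild-type mice (SD, n = 4 each). *Ccnd1* contributed 102 CPM to the sick and 343 CPM to the wild-type mean. *Ccnd2* was less abundant and went the other way, at 31.6 and 17.3 CPM. Leaving out both D cyclins turned the direction of the sum. Summed over the members other than *Ccnd1* and *Ccnd2*, the level was 411, 242, 275 and 319 CPM in sick mice, 197, 369, 208 and 259 CPM in healthy knock-in mice and 257, 247, 203 and 193 CPM in wild-type mice. Sick mice 1, 3 and 4 lay above all 4 wild-type mice in this second sum, sick mouse 2 lay among them, and healthy knock-in mouse 2 exceeded every mouse but sick mouse 1.

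**Figure D1:**
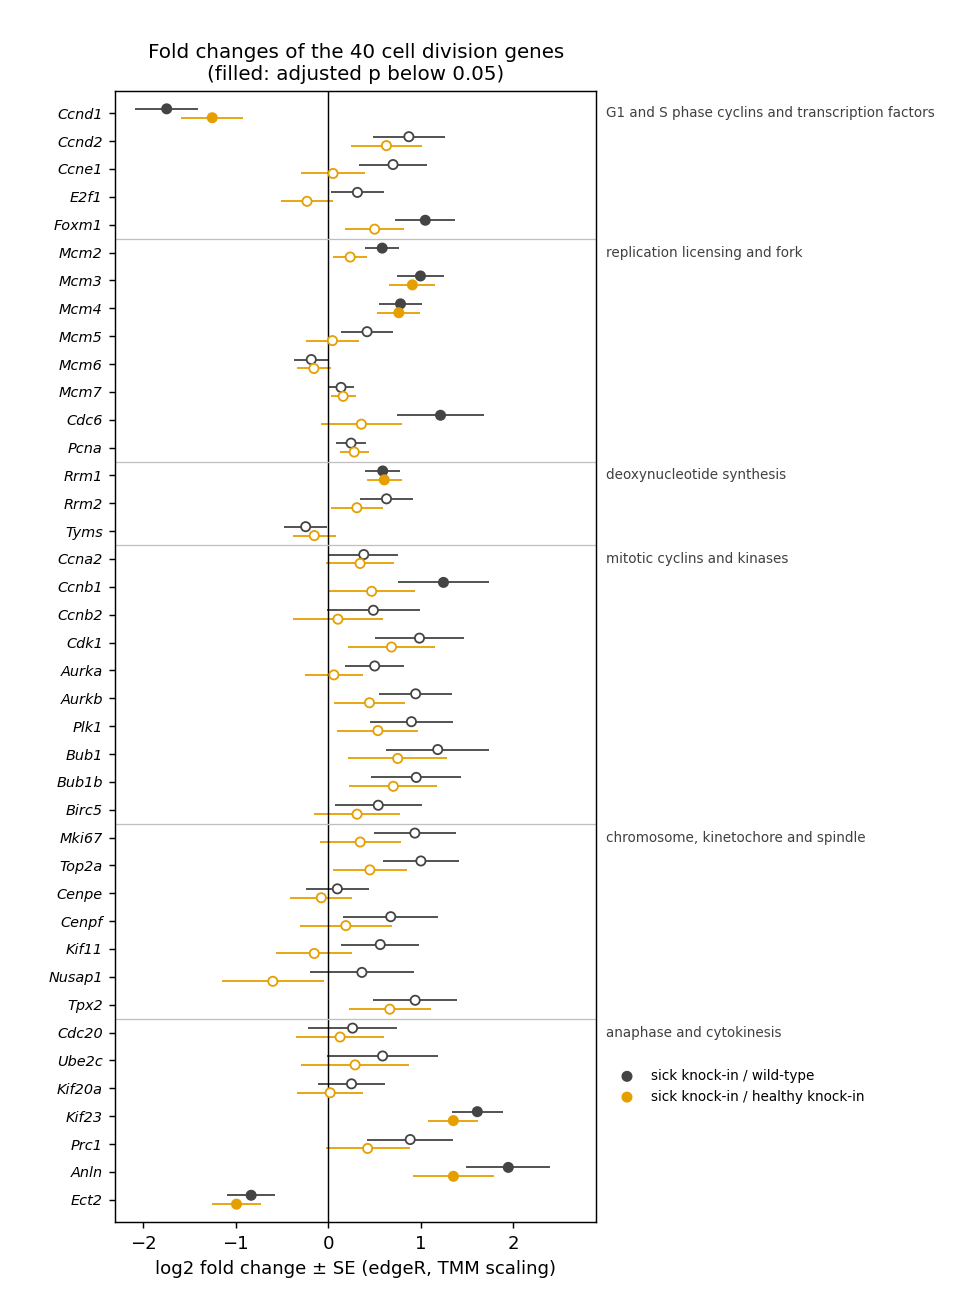
Log2 fold change with its SE for each of the 40 cell division genes, sick over wild-type (dark) and sick over healthy knock-in (orange), grouped by role; filled points passed an adjusted p of 0.05. Most points lie right of 0 and open, *Kif23* and *Anln* are filled in both comparisons on the right, and *Ccnd1* and *Ect2* are filled in both on the left.

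Among the G1 and S phase cyclins and transcription factors, 1 of 5 rose and 1 fell. *Ccnd1* (ENSMUSG00000070348, chromosome 7 from 144929931 to 144939925 of GRCm38, reverse strand) encodes cyclin D1, which carries growth signals into the cycle. *Ccnd1* had 128, 68.5, 105 and 107 CPM in sick mice, 249, 321, 310.5 and 93.6 CPM in healthy knock-in mice and 391, 343, 412 and 225 CPM in wild-type mice. All 4 sick mice lay below all 4 wild-type mice, and healthy knock-in mouse 4 lay among the sick mice. *Ccnd1* averaged 102 ± 24.9 CPM in sick kidneys, against 343 ± 83.3 CPM in wild-type kidneys (SD, n = 4 each), 3.35-fold lower in sick mice, at a log2 fold change of -1.75 ± 0.34 (edgeR adjusted p = 0.000995). With libraries scaled by totals alone that log2 fold change was -1.16 (adjusted p = 0.0131). It was by far the most abundant member per length, at 72.8 CPM per kb of exon in wild-type mice, against 6.66 for *Pcna*, the next, and 0.097 for *Cdc6*, the lowest. The exons of *Ccnd1* share 1100 bases, 23.4% of their length, with *LTO1* on the other strand, and the sources used here do not say whether the counting used strand, so reads there cannot be told apart.

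*Foxm1*, the transcription factor of late cell cycle genes, went the other way. *Foxm1* had 9.49, 4.45, 5.53 and 7.66 CPM in sick mice, 3.88, 6.88, 3.49 and 4.88 CPM in healthy knock-in mice and 4.69, 3.48, 1.91 and 3.001 CPM in wild-type mice. The gene averaged 6.78 ± 2.24 CPM in sick kidneys, against 3.27 ± 1.15 CPM in wild-type kidneys, 2.07-fold higher in sick mice (log2 fold change 1.05 ± 0.32, edgeR adjusted p = 0.0164), although the groups overlapped at sick mouse 2 and wild-type mouse 1. Without sick mouse 1 the call was lost (adjusted p = 0.059). *Ccnd2*, the gene of cyclin D2, did not pass (log2 fold change 0.87 ± 0.39, adjusted p = 0.0796), and passed when wild-type mouse 4 (1.25, adjusted p = 0.0189) or sick mouse 3 (1.07, adjusted p = 0.0362) was left out. *Ccnd2* had 41.2, 23.1, 17.3 and 44.8 CPM in sick mice, 21.5, 20.9, 25.2 and 14.3 CPM in healthy knock-in mice and 16.8, 6.78, 16.4 and 29.2 CPM in wild-type mice. *Ccne1*, the gene of cyclin E1, and *E2f1*, a founding E2F factor, had log2 fold changes of 0.70 (adjusted p = 0.131) and 0.32 (adjusted p = 0.373).

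**Figure D2:**
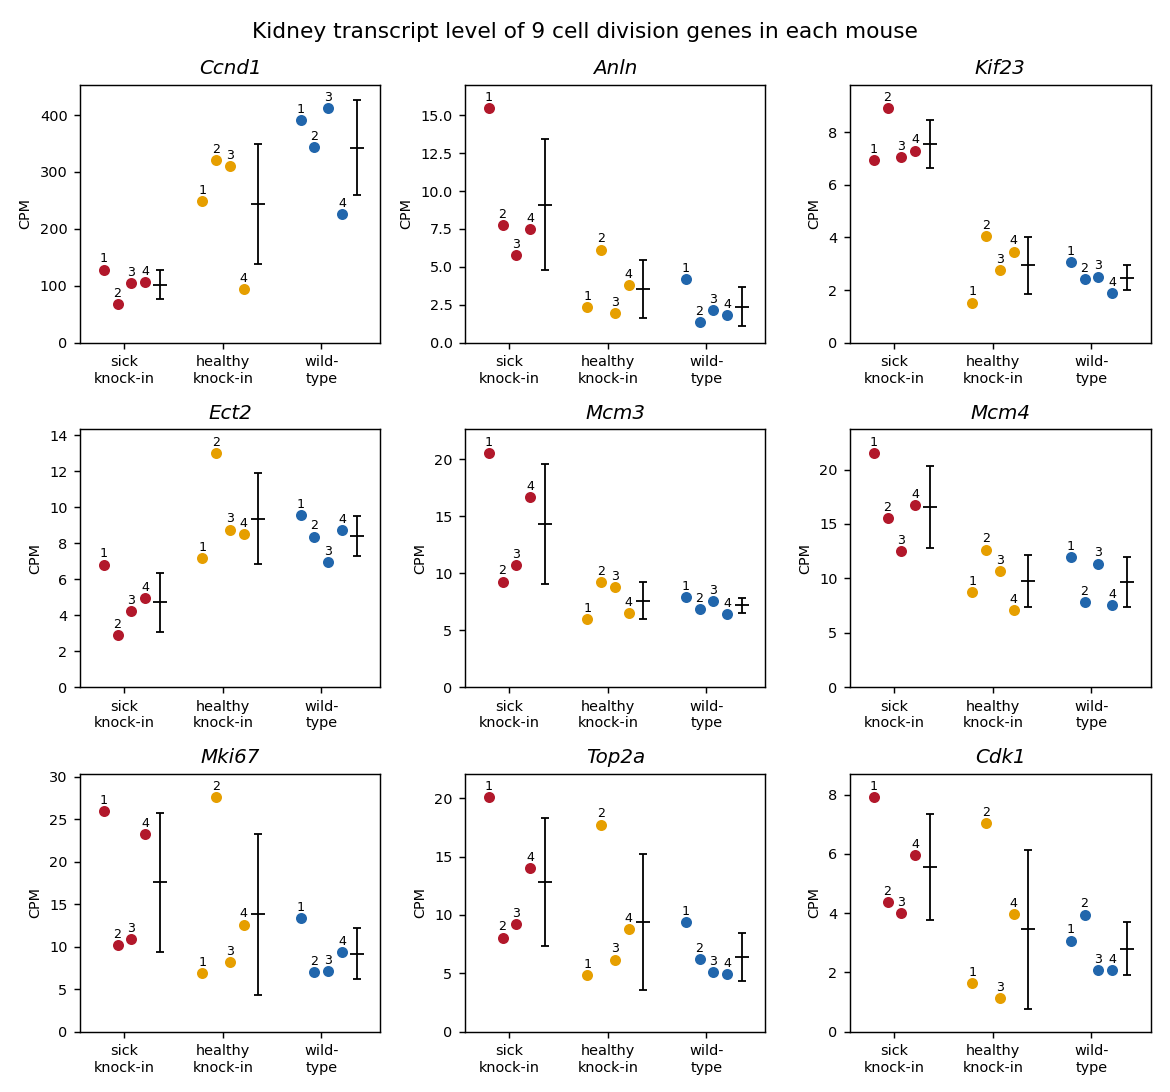
Transcript level in CPM of 9 cell division genes in each mouse, with the mouse number above its point and the mean ± SD of the 4 mice of a group as bars. *Ccnd1* and *Ect2* lie lower and *Anln*, *Kif23*, *Mcm3* and *Mcm4* higher in sick than in wild-type mice without overlap, while in *Mki67*, *Top2a* and *Cdk1* healthy knock-in mouse 2 reaches the level of the upper sick mice.

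Of the 8 genes of replication licensing 4 rose, *Mcm2*, *Mcm3*, *Mcm4* and *Cdc6*, and 0 fell, and without sick mouse 1 the call remained in 1, *Mcm3*. *Mcm3* (ENSMUSG00000041859, chromosome 1 from 20802968 to 20820312, reverse strand) encodes a subunit of the MCM helicase, and its promoter is shown above. *Mcm3* had 20.6, 9.26, 10.7 and 16.6 CPM in sick mice, 5.97, 9.24, 8.76 and 6.47 CPM in healthy knock-in mice and 7.93, 6.84, 7.54 and 6.39 CPM in wild-type mice. Every sick mouse lay above every wild-type and every healthy knock-in mouse, sick mouse 2 by the least. *Mcm3* averaged 14.3 ± 5.25 CPM in sick kidneys, against 7.18 ± 0.689 CPM in wild-type kidneys (log2 fold change 0.998 ± 0.25, edgeR adjusted p = 0.0053). *Mcm4* had 21.5, 15.5, 12.5 and 16.8 CPM in sick mice, 8.71, 12.6, 10.6 and 7.098 CPM in healthy knock-in mice and 11.97, 7.84, 11.4 and 7.57 CPM in wild-type mice. *Mcm4*, a further subunit, rose 1.72-fold (log2 fold change 0.78 ± 0.23, edgeR adjusted p = 0.0136), and the lowest sick mouse, mouse 3, stood just above the highest wild-type mouse. *Mcm2* averaged 14.8 ± 2.29 CPM in sick kidneys, against 9.89 ± 1.55 CPM in wild-type kidneys, 1.499-fold higher. Without sick mouse 1 *Mcm2* and *Mcm4* were no longer called (adjusted p = 0.0611 and 0.0505), nor was *Mcm2* without wild-type mouse 4 (adjusted p = 0.0522), whereas *Mcm3* was called in each such refit.

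*Cdc6*, the loader of the helicase, was scarce, with 105 counts in all over the 4 sick, 67 over the 4 healthy knock-in and 30 over the 4 wild-type libraries. *Cdc6* had 1.87, 0.697, 0.998 and 1.28 CPM in sick mice, 0.763, 1.63, 0.916 and 0.454 CPM in healthy knock-in mice and 0.485, 0.825, 0.26002 and 0.457 CPM in wild-type mice. Sick mouse 2 lay among the wild-type mice. Its 2.32-fold rise (log2 fold change 1.21 ± 0.47, edgeR adjusted p = 0.0454) was lost when any 1 of sick mice 1, 3 and 4 or wild-type mice 1, 3 and 4 was left out (adjusted p = 0.0517 to 0.152), and with no filter on low counts (adjusted p = 0.0624). The genes of the other 3 subunits of the helicase did not pass: *Mcm5*, *Mcm6* and *Mcm7* had log2 fold changes of 0.42, -0.18 and 0.14 (adjusted p = 0.24, 0.444 and 0.418), and that of *Mcm6* turned to 0.41 with libraries scaled by totals alone. *Mcm6* had 29.9, 23.97, 28.2 and 24.6 CPM in sick mice, 25.5, 39.1, 31.1 and 23.1 CPM in healthy knock-in mice and 28.3, 39.97, 28.2 and 24.6 CPM in wild-type mice. The 3 groups overlapped throughout in *Mcm6*. *Pcna*, the sliding clamp of the fork, had 0.25 (adjusted p = 0.213).

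Of the deoxynucleotide genes 1 of 3 rose. *Rrm1*, the large subunit of ribonucleotide reductase, which makes deoxynucleotides, was the one. *Rrm1* had 27.6, 21.1, 22.9 and 21.1 CPM in sick mice, 13.5, 21.5, 14.2 and 11.5 CPM in healthy knock-in mice and 16.9, 14.6, 17.1 and 13.05 CPM in wild-type mice. The sick mice lay above all wild-type mice, and healthy knock-in mouse 2 lay among the sick mice. It rose 1.505-fold against wild-type mice (log2 fold change 0.59 ± 0.19, edgeR adjusted p = 0.0205), a call lost without sick mouse 1 (adjusted p = 0.0675) and when wild-type mouse 4 was left out (adjusted p = 0.0599). *Rrm2*, the small subunit, whose level is known to follow S phase, had a log2 fold change of 0.63 ± 0.28 and did not pass (adjusted p = 0.0812). *Tyms*, thymidylate synthase, had -0.24 (adjusted p = 0.407), and 0.34 with libraries scaled by totals alone.

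Of the 10 mitotic cyclins and kinases 1 rose and 9 did not pass, although all 10 fold changes were positive, at a median log2 fold change of 0.92. *Ccnb1* had 3.28, 1.39, 2.15 and 2.77 CPM in sick mice, 0.572, 2.78, 0.858 and 2.67 CPM in healthy knock-in mice and 1.29, 1.002, 0.607 and 1.11 CPM in wild-type mice. *Ccnb1*, cyclin B1, the partner of CDK1 at mitotic entry, rose 2.37-fold against wild-type mice (log2 fold change 1.25 ± 0.49, edgeR adjusted p = 0.0493) on 205 counts over the sick, 124 over the healthy knock-in and 57 over the wild-type libraries. It held its call only without sick mouse 2 among the 8 refits that left out a sick or wild-type mouse, with adjusted p of 0.0624 to 0.13 in the other 7, and it was also lost with DESeq2 size factors (adjusted p = 0.0529), with no filter on low counts (adjusted p = 0.0594) and in limma-voom (adjusted p = 0.0913). *Cdk1* had 7.91, 4.38, 3.99 and 5.96 CPM in sick mice, 1.65, 7.03, 1.14 and 3.97 CPM in healthy knock-in mice and 3.07, 3.95, 2.08 and 2.09 CPM in wild-type mice. *Cdk1*, the mitotic kinase itself, was at 5.56 ± 1.78 CPM in sick kidneys, against 2.798 ± 0.899 CPM in wild-type kidneys and did not pass (log2 fold change 0.99 ± 0.48, adjusted p = 0.105), with sick mouse 3 just above the highest wild-type mouse. The other members that did not pass had log2 fold changes of *Bub1* 1.18, *Bub1b* 0.95, *Aurkb* 0.95, *Plk1* 0.90, *Birc5* 0.54, *Aurka* 0.50, *Ccnb2* 0.49 and *Ccna2* 0.38, with adjusted p of 0.0627 for *Aurkb* to 0.441 for *Ccnb2*. With 1 mouse left out at a time *Bub1* ranged over 0.72 to 1.60, *Bub1b* over 0.60 to 1.37 and *Birc5* over 0.30 to 1.004. *Bub1* and *Bub1b* passed without wild-type mouse 1 (adjusted p = 0.0488 and 0.0448) and *Aurkb* without sick mouse 2 (adjusted p = 0.0442). Fitted to the 8 sick and wild-type libraries alone, *Cdk1* and *Aurkb* passed (adjusted p = 0.0278 and 0.0488). They encode spindle checkpoint kinases (*Bub1*, *Bub1b*), the aurora kinases A and B, polo-like kinase 1, survivin (*Birc5*) and cyclins B2 and A2. Summed over the 10 genes the level was 52.3, 21.2, 31.4 and 38.2 CPM in sick mice, 14.3, 43.8, 17.1 and 31.6 CPM in healthy knock-in mice and 28.9, 27.5, 13.7 and 17.9 CPM in wild-type mice. Sick mouse 2 lay below 2 of the 4 wild-type mice in this sum.

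None of the 7 chromosome, kinetochore and spindle genes passed, and 1 of the 7, *Top2a*, had an unadjusted p under 0.05. *Mki67* had 25.9, 10.2, 10.9 and 23.2 CPM in sick mice, 6.93, 27.6, 8.18 and 12.6 CPM in healthy knock-in mice and 13.3, 7.01, 7.11 and 9.33 CPM in wild-type mice. *Mki67* was at 17.6 ± 8.18 CPM in sick kidneys, against 9.2002 ± 2.97 CPM in wild-type kidneys, a log2 fold change of 0.94 ± 0.44 (edgeR adjusted p = 0.096). Sick mice 2 and 3 lay within the wild-type range and sick mice 1 and 4 above it, while the highest level of all stood in healthy knock-in mouse 2. *Top2a* had 20.1, 8.07, 9.21 and 14.03 CPM in sick mice, 4.83, 17.7, 6.18 and 8.801 CPM in healthy knock-in mice and 9.38, 6.25, 5.11 and 4.96 CPM in wild-type mice. *Top2a*, the topoisomerase that untangles sister chromatids, had 1.002 ± 0.41 (adjusted p = 0.0567) and passed in DESeq2 (0.98, adjusted p = 0.0343) and in the 8 libraries alone (adjusted p = 0.0303). It also passed without sick mouse 2 (adjusted p = 0.0411), without sick mouse 3 (adjusted p = 0.048) or without wild-type mouse 1 (adjusted p = 0.0398). *Tpx2*, a spindle assembly factor, *Cenpf* and *Cenpe*, which act at the kinetochore, the spindle motor *Kif11* and the spindle protein gene *Nusap1* had log2 fold changes of 0.94, 0.68, 0.10, 0.56 and 0.36, with adjusted p of 0.102 to 0.828.

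Anaphase and cytokinesis, where 2 of 7 members rose and 1 fell, held the largest rise and the smallest adjusted p of the 40. *Kif23* (ENSMUSG00000032254, chromosome 9 from 61915905 to 61946774, reverse strand) encodes MKLP1, a motor of the central spindle. *Kif23* had 6.93, 8.897, 7.06 and 7.297 CPM in sick mice, 1.53, 4.04, 2.75 and 3.46 CPM in healthy knock-in mice and 3.07, 2.42, 2.51 and 1.89 CPM in wild-type mice. The 4 sick mice lay close together and above all 8 others, and here sick mouse 2 was the highest. *Kif23* averaged 7.55 ± 0.913 CPM in sick kidneys, against 2.47 ± 0.484 CPM in wild-type kidneys, 3.06-fold higher (log2 fold change 1.61 ± 0.28, edgeR adjusted p = 0.000404). *Anln* (ENSMUSG00000036777, chromosome 9 from 22332012 to 22389188, reverse strand) encodes anillin, the scaffold of the contractile ring. *Anln* had 15.4, 7.73, 5.76 and 7.503 CPM in sick mice, 2.35, 6.14, 1.95 and 3.804 CPM in healthy knock-in mice and 4.21, 1.36, 2.17 and 1.83 CPM in wild-type mice. All 4 sick mice lay above all 4 wild-type mice, and healthy knock-in mouse 2 lay just above sick mouse 3. Its level was 9.11 ± 4.32 CPM in sick kidneys, against 2.39 ± 1.26 CPM in wild-type kidneys, 3.86-fold higher (log2 fold change 1.95 ± 0.45, edgeR adjusted p = 0.00313).

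*Ect2* (ENSMUSG00000027699, chromosome 3 from 27097222 to 27153878, reverse strand) encodes the factor that turns on RhoA at the cleavage site, and it fell. *Ect2* had 6.81, 2.89, 4.22 and 4.93 CPM in sick mice, 7.18, 13.02, 8.76 and 8.52 CPM in healthy knock-in mice and 9.55, 8.37, 6.93 and 8.74 CPM in wild-type mice. Every sick mouse lay below every wild-type and healthy knock-in mouse, and sick mouse 1 came nearest to them. *Ect2* averaged 4.71 ± 1.64 CPM in sick kidneys, against 8.398 ± 1.09 CPM in wild-type kidneys, 1.78-fold lower (log2 fold change -0.83 ± 0.26, edgeR adjusted p = 0.0183). With libraries scaled by totals alone the call was lost (log2 fold change -0.23, adjusted p = 0.493). The promoter of *Ect2* shown above holds TTTGAA and CCAAT, as do those of *Cdk1* and *Mki67*, which did not pass and had positive fold changes. *Prc1*, which bundles the central spindle, *Ube2c* and *Cdc20*, which serve the anaphase-promoting complex, and the motor gene *Kif20a* had log2 fold changes of 0.89, 0.59, 0.26 and 0.25, with adjusted p of 0.128 to 0.677. The exons of *Kif20a* share 29.3% of their length with *Cdc23*, and those of *Ube2c* 22.8% with *Tnnc2*, each on the other strand.

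Much of the spread was between mice of a group. Sick mouse 1 had the highest level of its group in 37 of the 40 members, all but *Ccnd2*, *Kif23* and *Tyms*, and the highest of all 12 mice in 25. Sick mouse 2 had the lowest level of its group in 29 members and lay within the wild-type range in 28. Healthy knock-in mouse 2 was the highest of its group in 37 members, all but *Ccnd2*, *Ccne1* and *Nusap1*, lay above all 4 wild-type mice in 33, and exceeded at least 3 of the 4 sick mice in 26. The median over the 40 members of a mouse's level relative to the wild-type mean was 2.26, 1.08, 1.274 and 1.599 in sick mice 1 to 4. It was 0.8317, 1.887, 0.8817 and 1.307 in healthy knock-in mice 1 to 4 and 1.258, 1.053, 0.7906 and 0.8307 in wild-type mice 1 to 4. On this measure healthy knock-in mouse 2 stood above sick mice 2, 3 and 4, and sick mouse 2 stood below wild-type mouse 1. Without sick mouse 1 the calls against wild-type mice numbered 5 in place of 11, *Ccnd1*, *Mcm3*, *Kif23*, *Anln* and *Ect2*, and the median log2 fold change was 0.47. Of all genes 6815 were called in that refit, in place of 7933. With sick mouse 1 and healthy knock-in mouse 2 both left out, a choice made after seeing the data, 8 members were called, 6 higher and 2 lower. Of all genes 6528 were called there, 3509 higher and 3019 lower.

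**Figure D3:**
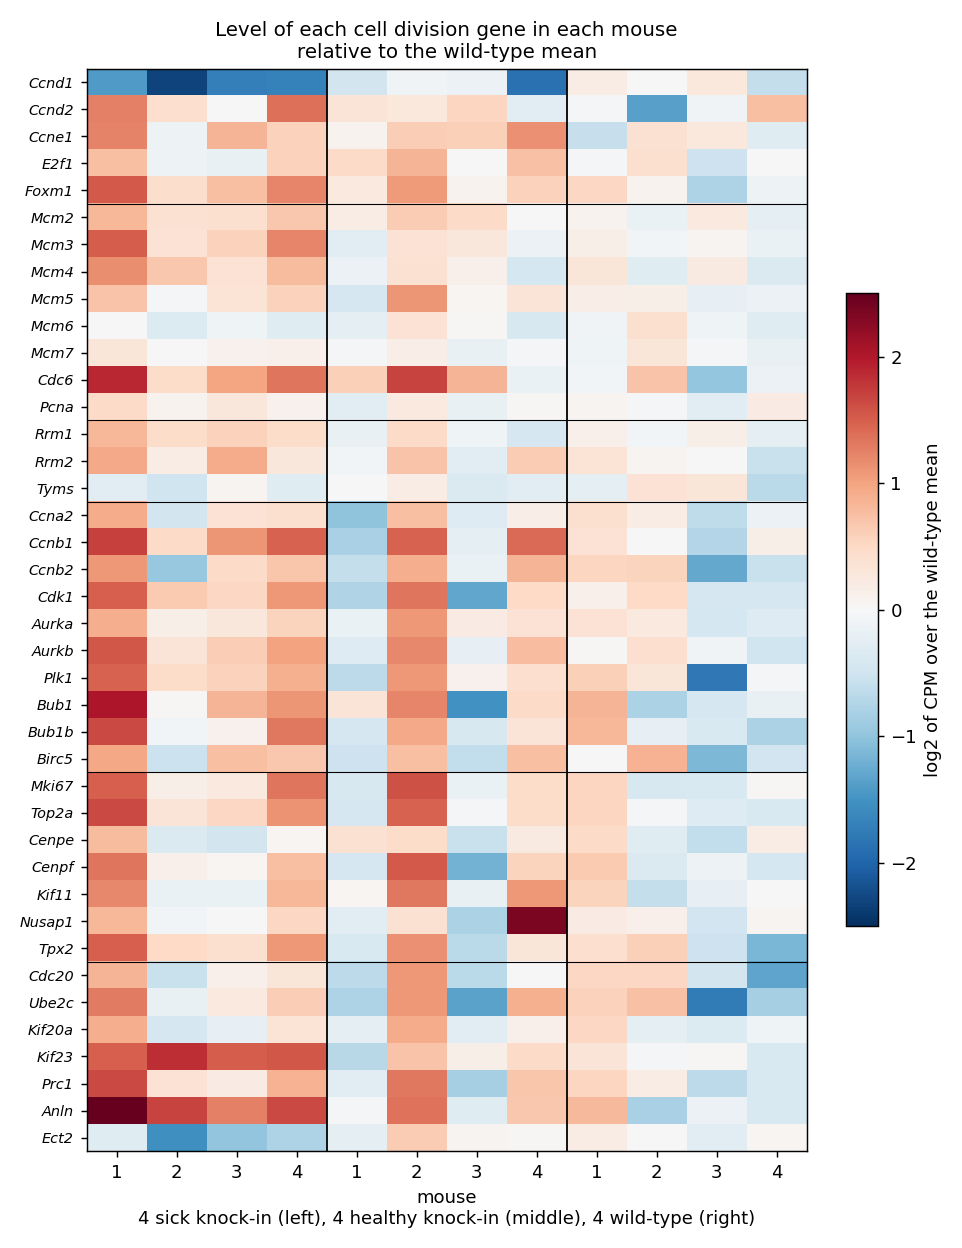
Level of each of the 40 cell division genes in each mouse as log2 of CPM over the wild-type mean, red above and blue below it, with sick mice left, healthy knock-in mice in the middle and wild-type mice right. The columns of sick mouse 1 and healthy knock-in mouse 2 are red in most genes, while *Ccnd1* and *Ect2* are blue and *Kif23* and *Anln* red across all 4 sick mice.

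Markers of other cells also differed between these mice, and their part in the members' levels was not tested. Of 14 macrophage markers 13 rose in sick against wild-type mice, and 0 fell, and their summed level was 1973, 939.8, 979 and 1320.5 CPM in sick mice, 239, 221, 285 and 231 CPM in healthy knock-in mice and 145, 186, 141 and 279 CPM in wild-type mice. *Cd68*, a lysosomal protein of macrophages, was at 19.4 to 30.7 CPM in sick mice, 4.03 to 5.72 CPM in healthy knock-in mice and 2.91 to 4.63 CPM in wild-type mice. *C1qa*, a complement gene of macrophages, was at 93.9 to 164 CPM in sick mice, 15.4 to 19.6 CPM in healthy knock-in mice and 6.85 to 23.03 CPM in wild-type mice. The 4 sick mice stood in the same order, 1, 4, 3 and 2, in this sum and in the median of the members. Healthy knock-in mouse 2, the highest of its group in the members, had the lowest macrophage sum of its group. All 11 fibroblast markers rose, summing to 7443, 3778, 3636 and 5726 CPM in sick mice, 625, 1162, 901 and 504 CPM in healthy knock-in mice and 699, 737, 543 and 606 CPM in wild-type mice. In that sum sick mice 1 and 4, and among the healthy knock-in mice mouse 2, were the highest of their groups. Sick mouse 2 stood above sick mouse 3 there, but below it in the median of the members (1.08 against 1.274). Healthy knock-in mouse 4 had the lowest fibroblast sum of its group, but its median of the members, 1.307, lay above those of healthy knock-in mice 1 and 3. *Col1a1*, a collagen I gene, stood at 513 to 1208 CPM in sick mice, 26.2 to 144 CPM in healthy knock-in mice and 30.7 to 80.2 CPM in wild-type mice. All 13 injured tubule markers rose as well, to 10310 to 17142 CPM in sick mice, against 960.04 to 1414 CPM in healthy knock-in mice and 816 to 1236 CPM in wild-type mice, and there sick mouse 3 was the highest. All 13 proximal tubule markers fell, with sums of 2585 to 5231 CPM in sick mice, 38409 to 50119 CPM in healthy knock-in mice and 15481 to 50243 CPM in wild-type mice. Of 12 T and NK cell markers 10 rose, at 16.03 to 50.9 CPM in sick mice, 9.82 to 15.1 CPM in healthy knock-in mice and 4.51 to 9.85 CPM in wild-type mice, with *Trac* at 0 in all 12 libraries. Of 9 endothelial markers 0 rose and 1 fell, at 696 to 829 CPM in sick mice, 699 to 798 CPM in healthy knock-in mice and 732 to 876 CPM in wild-type mice.

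**Figure D4:**
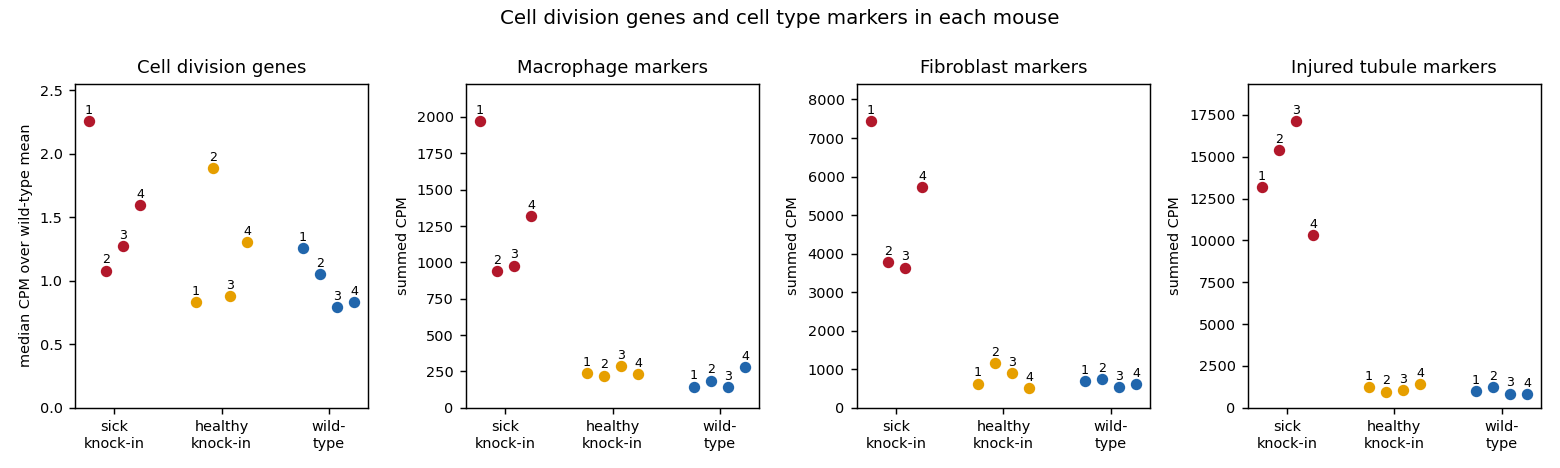
For each mouse, the median over the 40 cell division genes of its CPM over the wild-type mean (left), and the summed CPM of macrophage, fibroblast and injured tubule markers, with the mouse number above its point. The marker sums of the 4 sick mice lie above those of all 8 others, whereas in the cell division genes sick mouse 2 lies among the wild-type mice and healthy knock-in mouse 2 above 3 sick mice.

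Sick and healthy knock-in mice carried the same alleles, so their comparison asks what differs with illness within 1 genotype. Here 5 of 40 members rose (12.5%), 2 fell (5%) and 33 did not pass, against 24.5% of all genes higher and 21.9% lower (46.4% in either direction). *Kif23*, *Anln*, *Mcm3*, *Mcm4* and *Rrm1* rose, and *Ccnd1* and *Ect2* fell. Both comparisons share the sick mice. *Kif23* was 2.55-fold higher, at 7.55 ± 0.913 CPM in sick kidneys, against 2.94 ± 1.08 CPM in healthy knock-in kidneys (log2 fold change 1.35 ± 0.27, edgeR adjusted p = 0.00137). *Anln* was at 9.11 ± 4.32 CPM in sick kidneys, against 3.56 ± 1.896 CPM in healthy knock-in kidneys, a log2 fold change of 1.35 ± 0.43 (adjusted p = 0.0217), a call lost without sick mouse 1 (0.97, adjusted p = 0.0871), healthy knock-in mouse 1 (1.19, adjusted p = 0.0649) or healthy knock-in mouse 3 (1.14, adjusted p = 0.0622). *Mcm3*, *Mcm4* and *Rrm1* had log2 fold changes of 0.91 ± 0.25, 0.76 ± 0.23 and 0.61 ± 0.19 (adjusted p = 0.00973, 0.0165 and 0.0192). *Mcm4* lost its call without sick mouse 1 (adjusted p = 0.0598) or healthy knock-in mouse 4 (0.0526), and *Rrm1* without sick mouse 1 (0.0638) or any 1 of healthy knock-in mice 1, 3 and 4 (0.0522 to 0.0615). *Ccnd1* was at 102 ± 24.9 CPM in sick kidneys, against 244 ± 105 CPM in healthy knock-in kidneys (log2 fold change -1.25 ± 0.34, adjusted p = 0.00854), and *Ect2* at 4.71 ± 1.64 CPM in sick kidneys, against 9.37 ± 2.53 CPM in healthy knock-in kidneys (-0.99 ± 0.26, adjusted p = 0.00787). Both falls were lost with libraries scaled by totals alone (-0.69, adjusted p = 0.105, and -0.41, adjusted p = 0.225). With libraries scaled by totals alone 18 members rose and 0 fell (8581 and 1425 of all genes, against 3814 and 3418 with TMM), with a median over all genes of 0.63. The 4 sick mice lay above all 4 healthy knock-in mice in 2 members, *Mcm3* and *Kif23* (24% of all genes), and below them in 1, *Ect2* (23.2% of all genes), where 47.2% of all genes did not overlap in either direction. None of the 10 mitotic cyclins and kinases passed, nor any of the 7 chromosome and spindle genes: *Mki67* had 0.35 ± 0.44 (adjusted p = 0.542), *Top2a* 0.45 (0.38) and *Cdk1* 0.68 (0.256). The median log2 fold change over the 40 was 0.31, against 0.05 over all genes, and it was 0.10 without sick mouse 1 and 0.67 without healthy knock-in mouse 2.

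Healthy knock-in mice were compared with wild-type mice to see how carriers that were not sick differed from mice without the substitution. In edgeR 0 of 40 members were called, 0 had an unadjusted p under 0.05, and 0 were called in DESeq2 or limma-voom, against 0.308% of all genes higher and 0.00641% lower (0.314% in either direction). The 3 smallest p-values belonged to *E2f1*, *Mcm2* and *Cdc6*, with log2 fold changes of 0.54 ± 0.28, 0.35 ± 0.18 and 0.86 ± 0.48 (unadjusted p = 0.0764, 0.083 and 0.0967, edgeR adjusted p = 0.912 for each). *E2f1* had 6.89, 3.72, 3.61 and 6.12 CPM in sick mice, 5.66, 7.35, 4.12 and 6.76 CPM in healthy knock-in mice and 3.96, 5.36, 2.86 and 4.11 CPM in wild-type mice. The groups overlapped in *E2f1*, as they did in all 40 members (2.17% of all genes lay higher without overlap, 1.8% lower and 3.97% in either direction). Of the 40 fold changes 34 were positive, at a median log2 fold change of 0.31, and without healthy knock-in mouse 2 these numbers were 23 and 0.02. *Ccnd1* had -0.49, *Kif23* 0.26, *Anln* 0.59 and *Ect2* 0.16 (adjusted p = 0.912, 0.913, 0.912 and 0.929).

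Further genes of the cycle, in 3 lists drawn up by function, were read from the same fit, where 25.9% of all genes rose and 25% fell. Of 31 other replication genes 11 rose and 4 fell in sick against wild-type mice, at a median log2 fold change of 0.35. The largest rises were in *Uhrf1*, *Chaf1b*, *Lig1* and *Orc1*. *Uhrf1*, which couples DNA methylation to replication, was at 8.19 ± 2.73 CPM in sick kidneys, against 2.69 ± 0.6796 CPM in wild-type kidneys (3.04-fold, edgeR adjusted p = 0.000558), and *Lig1*, the ligase that joins Okazaki fragments, at 13.1 ± 0.961 CPM in sick kidneys, against 5.57 ± 0.695 CPM in wild-type kidneys (2.34-fold, adjusted p = 9.81e-05). *Chaf1b*, of the chromatin assembly factor, rose 2.96-fold and *Orc1*, of the origin recognition complex, 2.28-fold. *Orc1* lost its call without sick mouse 1, wild-type mouse 2 or wild-type mouse 4 (adjusted p = 0.0514 to 0.076), in DESeq2 (0.0746) and in limma-voom (0.0909). Those that fell included *Mcm10*, *Tk1* and *Dut*. *Mcm10*, which helps to fire the helicase, was at 2.44 ± 0.832 CPM in sick mice, 10.3 ± 3.94 CPM in healthy knock-in mice and 12.03 ± 4.02 CPM in wild-type mice (5.01-fold lower in sick than in wild-type, adjusted p = 0.000109). *Tk1*, thymidine kinase 1, fell 1.78-fold and *Dut*, which breaks down dUTP, 1.46-fold, and neither was called with libraries scaled by totals alone (adjusted p = 0.384 and 0.858). *Dut* was also lost without sick mouse 1, 2 or 4 or wild-type mouse 2 (adjusted p = 0.0618 to 0.078), with upper-quartile factors (0.0909) and in the 8 libraries alone (0.0765).

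Of the 50 other mitosis genes 49 were tested, all but *Cdc25c*; 12 rose and 2 fell, at a median log2 fold change of 0.73. *Kif15*, a spindle motor, was at 1.71 ± 0.713 CPM in sick kidneys, against 0.399 ± 0.274 CPM in wild-type kidneys (4.19-fold, edgeR adjusted p = 0.00342). That wild-type level lay below that of the scarce *Cdc6* (0.507 CPM), so the fold rests on few counts. *Espl1*, separase, which cuts cohesin at anaphase, was at 3.66 ± 1.71 CPM in sick kidneys, against 0.90996 ± 0.287 CPM in wild-type kidneys (4.02-fold, adjusted p = 0.00151). *Cdc25b*, a phosphatase that frees CDK1 for mitosis, was at 19.5 ± 1.59 CPM in sick kidneys, against 8.01 ± 2.71 CPM in wild-type kidneys (2.45-fold, adjusted p = 0.000496). *Iqgap3* rose 2.802-fold (adjusted p = 0.0314), a call lost without sick mouse 1 or 4 or wild-type mouse 2, 3 or 4 (adjusted p = 0.0506 to 0.126). The 2 that fell were *Cks2*, a subunit of mitotic kinases (2.501-fold, adjusted p = 0.00126), and *Cit*, citron kinase of the cleavage furrow (3.06-fold, adjusted p = 0.0209). *Cit* lost its call without sick mouse 2 or 3 or wild-type mouse 1 or 3 (adjusted p = 0.0503 to 0.0748), and with libraries scaled by totals alone (log2 fold change -1.02, adjusted p = 0.106). The count of 14 in this list was 7 without sick mouse 1 or without wild-type mouse 3, 8 without wild-type mouse 4 and 9 without sick mouse 4. Over all genes the counts in these refits were 6815, 7544, 7682 and 7188, in that order, against 7933 with all mice.

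Of 39 genes of G1 control and cycle inhibition 38 were tested, all but *Cdkn2a*; 9 rose and 3 fell, at a median log2 fold change of 0.16. The largest rises included inhibitors of the cycle. *Cdkn1a* had 62.6, 131, 86.6 and 87.7 CPM in sick mice, 5.85, 21.8, 9.67 and 44.01 CPM in healthy knock-in mice and 5.18, 13.2, 4.07 and 18.7 CPM in wild-type mice. *Cdkn1a*, which encodes p21, a p53 target that blocks cyclin-dependent kinases, rose 8.84-fold against wild-type mice (log2 fold change 3.14 ± 0.62, edgeR adjusted p = 0.00103), with every sick mouse above all 8 others. *Cdkn2b*, which encodes p15, was at 8.83 ± 4.01 CPM in sick mice, 1.17 ± 0.446 CPM in healthy knock-in mice and 0.915 ± 0.625 CPM in wild-type mice (9.28-fold higher than in wild-type, adjusted p = 0.000165). *Btg2*, an antiproliferative p53 target, was at 64.3 ± 8.78 CPM in sick mice, 23.1 ± 7.97 CPM in healthy knock-in mice and 15.2 ± 3.91 CPM in wild-type mice (4.22-fold, adjusted p = 2.44e-05). *Myc*, the growth-promoting transcription factor, rose 3.398-fold (adjusted p = 0.00345), and without wild-type mouse 4 its log2 fold change was 2.46 in place of 1.76. The 3 that fell were *Tob1*, a further antiproliferative gene, *Lin52*, of the complex that holds late genes off in resting cells, and *E2f5*, a repressive E2F. They fell 1.87-fold, 1.64-fold and 1.34-fold, and none was called with libraries scaled by totals alone. *E2f5* was also lost without sick mouse 1, 2 or 4 or wild-type mouse 4 (adjusted p = 0.0644 to 0.0877), with upper-quartile factors (0.101) and in the 8 libraries alone (0.0563). *Cdkn2a*, which encodes p16 and Arf, was too scarce to be tested and had 0 counts in the wild-type libraries. *Cdkn2a* had 1.78, 0.398, 0.384 and 0.668 CPM in sick mice, 0, 0, 0.114 and 0.0568 CPM in healthy knock-in mice and 0, 0, 0 and 0 CPM in wild-type mice. With libraries scaled by totals alone, 20 rose and 2 fell among the replication genes, 35 and 1 among the mitosis genes, and 30 and 0 in the G1 list. Of all genes 8420 rose and 1605 fell with that scaling. In sick against healthy knock-in mice 12 rose and 3 fell among the replication genes, 6 and 3 among the mitosis genes, and 9 and 3 in the G1 list. As shares of the genes tested, 38.7%, 12.2% and 23.7% of these lists rose and 9.68%, 6.12% and 7.89% fell. Of all genes 24.5% rose and 21.9% fell there. In healthy knock-in against wild-type mice edgeR called 0 genes in each list, with an unadjusted p under 0.05 in 1, 3 and 1. Of all 15589 genes tested it called 49, and 700 had an unadjusted p under 0.05.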

How the data were processed

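Raw counts per gene were deposited by the authors for the 12 libraries, per the file headers. Per the submitters' processing notes the tools were TopHat2 2.0.11, Trim Galore 0.3.7, DESeq2 1.12.4 and Cufflinks, on GRCm38. The sources used here name no counting program, annotation or strand setting. The 12 columns of the authors' normalized counts were not used. No libraries were identical.

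The test was that of edgeR 4.0.16 (R 4.3.3): filterByExpr by group (minimum count 10), TMM, 1 mean per group over all 12 libraries, quasi-likelihood F test, Benjamini-Hochberg adjustment over 15589 genes, threshold 0.05. It was also run on simulated data, where few genes changed, in equal numbers up and down, and all had the same spread. That simulation could not check the TMM scaling of the sick libraries. The SE is the size of the log2 fold change over the square root of F. The p-values set a group difference against the spread between mice, which edgeR estimated over all 12 libraries and drew toward that of other genes. Exon lengths and overlaps came from an annotation of GRCm38. Alternatives used limma 3.58.1 and DESeq2 1.42.0. Groups came from the labels.

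The members and lists were chosen with earlier results of these data known. By rule, values in every mouse were given for up to 3 called members per role, and the members with the 3 smallest p-values in healthy knock-in mice and up to 4 rises and 4 falls per further list were named; the members shown with values that did not pass, and *Cdkn1a* and *Cdkn2a* by mouse, were added after their values were seen. Some genes that the rule names are not reported here.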

Additional observations from a re-analysis of the deposited data

Results flagged for a closer look

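*Nusap1*, which encodes a protein of the mitotic spindle, stood apart in 1 mouse of its group. It was at 16.58 CPM in healthy knock-in mouse 4, against 1.889 to 4.251 CPM in the other 3 healthy knock-in mice. The gap to the nearest of them was 0.839 of the range of the group, above the critical value of 0.829 for 4 mice. This was 1 of 120 such groups examined, 40 members in 3 groups, and chance alone flags about 1 in 20. The exons of *Nusap1* share 4.24% of their length with *Oip5* on the other strand.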

How the results depend on the processing

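The counts below are of genes called, first for sick set against wild-type mice and then for sick set against healthy knock-ins. With the settings of the report these were 11 and 7 cell division genes, 14 and 9 of the other mitosis genes, 15 and 15 of the other replication genes, and 12 and 12 of the G1 list. Over all genes they were 7933 and 7232. Scaling by library totals alone, which leaves out the TMM factors, gave 29 and 18 cell division genes, 36 and 29 mitosis genes, 22 and 23 replication genes, and 30 and 25 of the G1 list. The counts over all genes were then 10025 and 10006. An adjusted p of 0.01 left 4 and 4, 5 and 2, and 7 and 5 in the first 3 of these lists, and 5721 and 4973 of all genes. Leaving out 1 mouse at a time gave 5 to 13 and 4 to 9 cell division genes, 7 to 14 and 5 to 14 mitosis genes and, against healthy knock-in mice, 9 to 14 replication genes. Of all genes these refits called 6815 to 8376 and 6150 to 7363. With sick mouse 1 and healthy knock-in mouse 2 both left out, chosen after seeing the data, 6 and 3 mitosis genes were called, and 8 replication genes against healthy knock-in mice. That refit called 6528 and 5419 of all genes. Over all genes, healthy knock-in against wild-type mice gave 49 calls, and 81 in DESeq2 and 86 in limma-voom.

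Directions turned, in sick against wild-type mice, for *Mcm6* (0.41), *Tyms* (0.34), *Dut* (0.044) and *E2f5* (0.16) with totals alone, and for *Cenpe* (-0.083) and *Kif20a* (-0.043) in limma-voom. They also turned for *Cenpe* (-0.23) and *Kif20a* (-0.049) without both mice, and over the refits without 1 mouse for *Cenpe* (-0.24 to 0.29), *Cdc20* (-0.012 to 0.49) and *Kif20a* (-0.062 to 0.47). None of these but *Dut* and *E2f5* was called as reported. The cause was not tested.

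Replicate numbers are not stated to pair the mice. Deviations of same-numbered mice correlated at -0.26 to 0.224, -0.0244 to 0.0588 and, for healthy knock-in and wild-type mice, -0.109 to 0.243. With so few mice these values cannot decide whether the numbers pair them. The replicate block gave 9 and 7 cell division genes (7480 and 6809 of all genes), without *Cdc6* and *Ccnb1* (adjusted p = 0.0576 and 0.0581), and of the further genes named it ended the calls of *Dut* and *Cit* (adjusted p = 0.0554 and 0.0512). *Cdc6* and *Ccnb1* rested on 30 to 205 counts per group.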
